A study of Caenorhabditis elegans with 4 samples.

Results

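FOS-1 peaks on the arms of chromosome V were described in first-stage (L1) larvae of the nematode Caenorhabditis elegans. A peak belonged to an arm when its midpoint lay below position 6974716 (left arm) or above 13949433 (right arm) of chromosome V in the WormBase WS220 build. These bounds cut the chromosome into 3 segments of about equal length. Of the 6095 peaks called on the merged reads (the combined list), 406 met this rule, 208 on the left arm and 198 on the right, and 408 more lay in the centre of V between them.

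The animals were fed L1 hermaphrodites of strain OP304, raised on E. coli HB101 at 20 °C and crosslinked in 2% formaldehyde. All 4 libraries came from this strain, which carries unc119(ed3) and the transgene wgIs304, written in the labels as fos-1::TY1 EGFP FLAG with unc119. The transgene was brought in by bombardment and adds a copy of fos-1 that is tagged with green fluorescent protein (GFP), and no library from untagged worms was analysed here. A goat antibody against GFP was used for the 2 chromatin immunoprecipitation (ChIP) libraries, and the 2 input libraries were made from chromatin that was not precipitated. Uniquely mapped reads numbered 3763795 in ChIP replicate 1, 2961912 in ChIP replicate 2, and 2762470 and 2799514 in the inputs. The labels do not tie the replicates to separate cultures, and differences between them may be technical only. The chromatin came from whole larvae, so the cells in which a site was bound are not known.

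Fos proteins are bZIP transcription factors that bind DNA as dimers, and the worm's FOS-1 is required when the anchor cell breaches the basement membrane toward the vulva. Worm chromosomes have no single centromere. Instead, each autosome has a central part that recombines little and is dense in widely expressed genes, and 2 arms that recombine more and carry more repeats. The arms of chromosome V are known for large families of chemoreceptor and other rapidly duplicating genes.

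The V arms held fewer peaks per length than any other outer segment compared. The left arm carried 29.8 combined peaks per Mb and the right arm 28.5. The 6 outer segments of II, III and IV, from cutting each chromosome into 3 equal lengths, carried between 39.9 (II left) and 74.7 (III right). Both V arms thus lay below all 6. Together, the arms had 0.503 times the density of those outer segments (29.1 against 58.0 peaks per Mb, 95% interval of the ratio 0.450 to 0.560, exact binomial test, two-sided, Benjamini-Hochberg adjusted over 10 tests, p = 9.4e-40). The centre of V carried 58.5 peaks per Mb.

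Against the outer segments of II, III and IV, the lists called on single libraries gave a lower ratio. In the replicate 1 list the left arm had 15.2 peaks per Mb and the right 13.1, and the 6 outer segments ran from 23.6 to 53.4, which made a pooled ratio of 0.342. In the replicate 2 list both arms had 6.60 and 6.61 peaks per Mb, and the 6 outer segments ran from 14.2 to 31.8, a pooled ratio of 0.279. The V arms were therefore below all 6 outer segments in each of the 3 lists. The centre of V had 30.1 peaks per Mb in replicate 1 and 11.2 in replicate 2. The outer segments of I had 33.5 and 13.6, against 64.6 in the combined list. The lower ratio in the single lists is stated for II, III and IV only. The 2 arms were not told apart: the left arm had 1.05 times the density of the right (95% interval 0.858 to 1.28, exact binomial test, adjusted p = 0.819). All these tests treat peaks as independent, which neighbours are not, so their p-values may be too small, and the sparseness of chromosome V was already known when its arms were chosen.

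**Figure D1:**
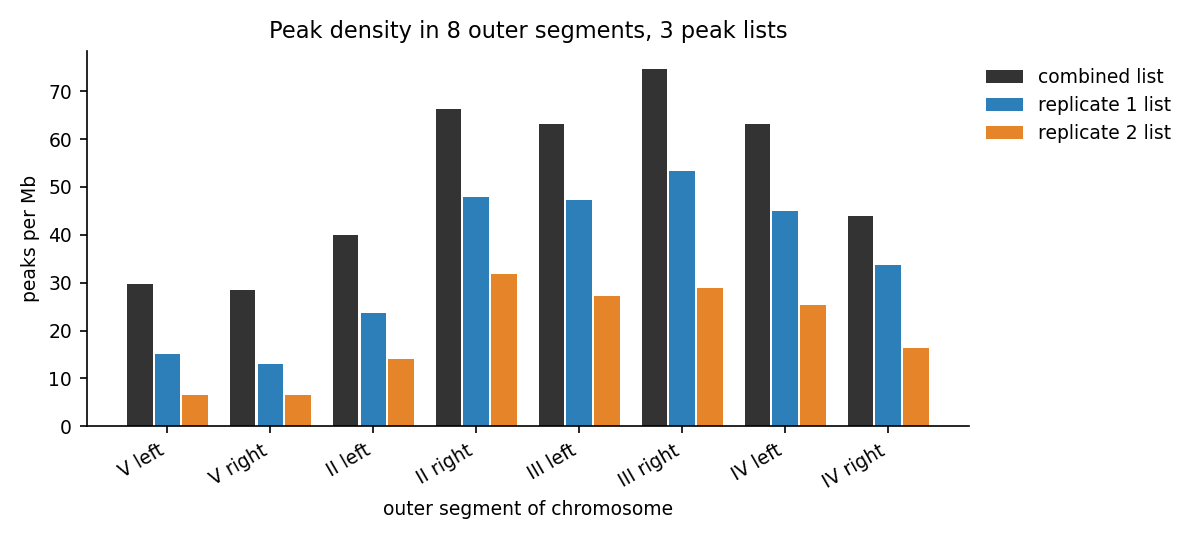
Peaks per Mb in each V arm and in each outer segment of II, III and IV, one bar for each of the 3 peak lists. In every list both V arms are lower than the 6 other outer segments, and the V arms are 29.8 and 28.5 peaks per Mb in the combined list.

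Within the arms the peaks were unevenly placed, and the right arm was the more uneven. In 1-Mb bins the left arm held from 21 peaks (2 to 3 Mb) to 34 (5 to 6 Mb), with 37 in the shorter innermost bin from 6 Mb to the boundary. The right arm held from 8 (17 to 18 Mb) to 40 (14 to 15 Mb), with 48 in the shorter outermost bin from 20 Mb to the last peak, where the density was 53.1 per Mb. The left arm was thus poorest at 2 to 3 Mb and fuller from there inward, while the right arm was fullest at both of its ends and poor in its middle. At the boundaries themselves, the last peak of the left arm was at 6893895 to 6894004 (q = 0.00937) and the first of the centre at 6994186 to 6994324 (q = 7.45e-05). On the other side, the last of the centre was at 13909425 to 13909766 (q = 2.31e-12) and the first of the right arm at 13993104 to 13993764 (q = 0.000346).

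The longest peak desert of each V arm was longer than that of any of the 6 other outer segments. The longest gap between neighbouring combined peaks was 539.8 kb on the right arm and 283.5 kb on the left, against 124 to 207 kb in those 6. In replicate 1 it was 698 kb on the right and 498 kb on the left, against 137 to 412 kb, and in replicate 2 it was 892 kb and 854 kb, against 182 to 473 kb. Gaps over 100 kb numbered 19 on the right arm, where they took up 3.41 Mb or 49.0% of its length, and 14 on the left, where they took up 1.89 Mb or 27.1%. The other outer segments had 2 to 12 such gaps on 4.97% to 30.2% of their length. By this measure the right arm stood above the range of the 6 and the left arm lay inside it. Fewer peaks per length and a longer segment give longer gaps by themselves, and neither was adjusted for. The left and right V arms were 6.97 and 6.95 Mb long, and the 6 other segments 4.59 to 5.82 Mb. The lengths of deserts are therefore not a result apart from density.

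The largest desert lay on the right arm at 17317974 to 17857794, and a second one, of 351.8 kb at 16965999 to 17317830, adjoined it. Only 1 combined peak separated them, at 17317831 to 17317973 (143 bp, q = 0.00165), and neither replicate list held it. Replicate 1 had 1 peak in the whole stretch, at 17159730 to 17159796 (67 bp, q = 0.00658), and replicate 2 had none, which left a gap of 892 kb in that list. The stretch was bordered by peaks found in both replicates, at 16965558 to 16965998 (q = 2.29e-27) and 17857795 to 17858455 (q = 2.15e-10).

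The next longest deserts of the right arm were at 18087146 to 18332394 (245 kb), 20006229 to 20249721 (243 kb) and 19190316 to 19391307 (201 kb). Of these, the one of 243 kb held 1 replicate 1 peak, at 20069684 to 20069690 (q = 0.00156). On the left arm, the longest was at 2281908 to 2565411, and the replicate lists held no peak in it. Its inner end was set by a peak of 1 bp (q = 0.00894) that was in neither replicate list. The next on the left were at 2896642 to 3094421 (198 kb), 1489050 to 1621563 (133 kb), 777612 to 904644 (127 kb) and 6659098 to 6785198 (126 kb), the last of which held 2 replicate 1 peaks.

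Windows of 100 kb at fixed positions showed more empty stretches on the V arms. Fewer peaks per length leave more windows empty by themselves. The shares of empty windows were not adjusted for density and are not a result apart from it. Of 69 windows, 16 on the right arm (23.2%, exact 95% interval 13.9 to 34.9) and 9 on the left (13.0%, 6.14 to 23.3) held no combined peak, against 14 of 305 windows (4.59%, 2.53 to 7.58) in the other outer segments. The longest run of such windows was 4 on the right arm and 2 on the left. Across the empty windows of both arms, replicate 1 had 1 peak and replicate 2 had 0. An empty window was one in which nothing was called, which does not show that FOS-1 was absent.

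Short gaps between neighbouring peaks were a smaller share of gaps on the V arms than in the other outer segments. Fewer peaks per length give fewer short gaps by themselves, so the values on gaps are not a result apart from the density, for which they were not adjusted. The median gap was 17.4 kb on the left arm and 12.5 kb on the right, and 6.34 to 15.2 kb in the other outer segments. The left arm was above that range. The right arm lay inside it, though it held fewer peaks per Mb than the left arm. Of 404 gaps on the V arms, 78 (19.3%) were 2000 bp or shorter, against 26.4% of 1791 gaps in the outer segments of II, III and IV and 28.3% over all combined peaks. This was a difference of -7.05 percentage points (95% interval -11.2 to -2.46, Fisher's exact test, two-sided, adjusted p = 0.00704). The left arm had 17.4% and the right arm 21.3% (difference -3.93 points, interval -11.7 to 3.78, Fisher's exact test, adjusted p = 0.539). By Fisher's exact test, the difference between V and the others did not pass with the replicate 2 list alone (adjusted p = 0.416), with gaps of 1000 bp or less (0.140), with the lowest-q 50% of peaks (0.123), with arms cut as a smaller share of the chromosome (0.166) or against II alone (0.190).

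**Figure D2:**
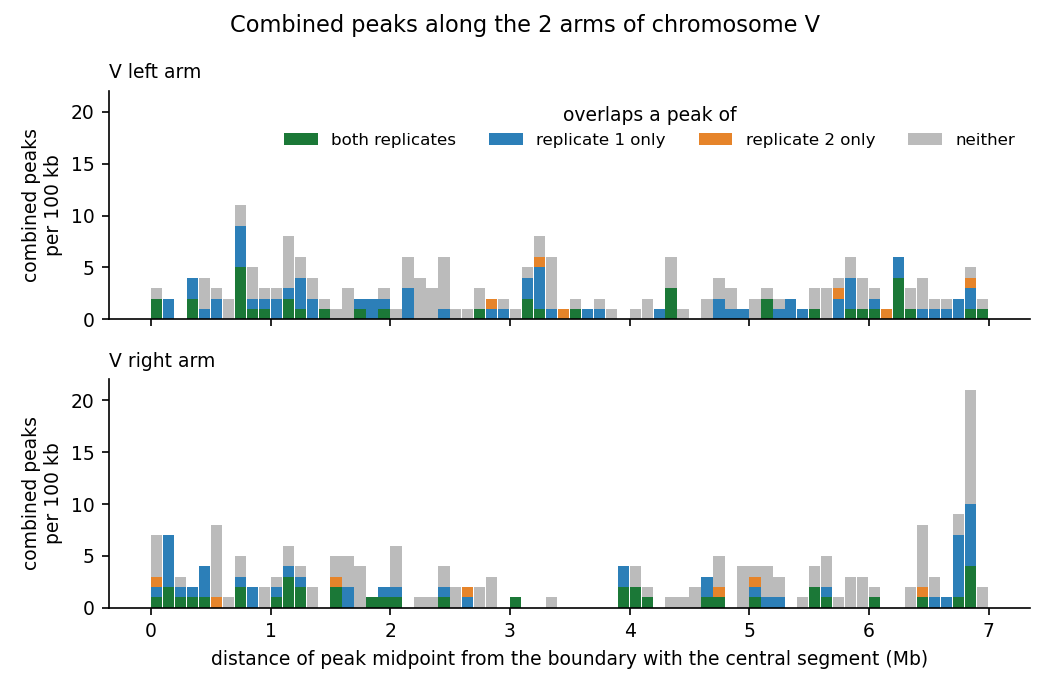
Number of combined peaks in 0.1-Mb bins along each V arm, by distance of the peak midpoint from the boundary with the central part of the chromosome, coloured by the replicate lists that a peak overlaps. Bins start at that boundary and so differ from the 100-kb windows of the text; the tallest holds 21 peaks on the right arm and 11 on the left, and a wide stretch in the middle of the right arm is almost empty.

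The fullest islands of the 2 arms were unlike in number and strength of peaks. On the left arm the fullest 100-kb window was 6.2 to 6.3 Mb, with 12 combined peaks, 10 in replicate 1 and 7 in replicate 2. Its median q was 7e-09, and 6 of its peaks were among the lowest-q 10% of the whole combined list. On the right arm the fullest was 20.7 to 20.8 Mb, with 23 combined peaks, 14 in replicate 1 and 3 in replicate 2. Its median q was 0.000119, and 1 of its peaks was in that 10%. The fullest windows of the 6 other outer segments held 13 to 17 combined peaks, so the left island was smaller and the right one larger than all of these. By q, strong peaks made up 6 of the 12 on the left and 1 of the 23 on the right.

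The core of the left island was a chain of 6 peaks within 16.1 kb, at 6213820 to 6229968, with gaps of 223 to 6645 bp. All 6 overlapped a replicate 1 peak and 4 overlapped a replicate 2 peak, and 4 were wider than 1000 bp. The strongest of them, at 6226715 to 6229968 (3254 bp), had q = 2.02e-99 in the combined list and ranked 17th of all peaks. The replicate 1 peak there had q = 4.46e-47. Replicate 2 had 3 peaks in the same interval, the strongest with q = 1.03e-21. Its neighbour at 6224162 to 6225685 (1524 bp) had q = 3.39e-62, with 7.61e-34 in replicate 1 and 6.93e-15 in replicate 2. The outermost of the chain, at 6213820 to 6214243 (424 bp), had q = 7.74e-36, with 2.82e-19 and 1.92e-13 in the replicates. Several of the strongest left-arm peaks thus came from 1 short stretch.

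The island at the right end spanned 87.2 kb, from 20704004 to 20791237, and 14 of its 22 gaps were 2000 bp or shorter. Its strongest peak, at 20777821 to 20779172 (1352 bp), had q = 3.00e-49 in the combined list, 5.97e-30 in replicate 1 and 3.73e-12 in replicate 2, and was also the strongest and the widest peak of the right arm. The next strongest of the island had q = 1.76e-11. Around it, 12 peaks stood within 14.6 kb, at 20776593 to 20791237. Of all 23, 3 were found in both replicates, 11 in replicate 1 only and 9 in neither. Whether such runs are single broad sites cut up by the peak caller or separate sites was not tested.

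The next fullest windows held 8 or 9 combined peaks each. On the left, 1.1 to 1.2 Mb and 3.7 to 3.8 Mb held 8 peaks each, of which 3 in each were in neither replicate, and their lowest q were 3.99e-35 and 1.37e-07. On the right, 20.4 to 20.5 Mb held 9, of which 7 were in neither replicate, and 15.5 to 15.6 Mb held 8, of which 4 were in neither, with lowest q of 1.96e-14 and 1.40e-10. The 7 fullest windows of the right arm held 34.9% of the peaks in its windows, and those of the left arm 26.9%.

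The rest of the 5 lowest-q peaks of each arm lay outside the 2 fullest islands. On the left arm they were at 5049272 to 5050165 (q = 5e-62) and, inside the island at 1.1 to 1.2 Mb, at 1151115 to 1152016 (q = 3.99e-35). On the right arm a peak of 1166 bp at 14685416 to 14686581 had q = 6.23e-28, with 3.20e-18 in replicate 1 and 2.18e-08 in replicate 2. The peak at 16965558 to 16965998 followed with q = 2.29e-27 (3.89e-14 and 6.43e-10 in the replicates). Slightly weaker were a peak of 656 bp at 16000436 to 16001091 (q = 2.46e-25) and one of 375 bp at 14055022 to 14055396 (q = 3.17e-25). All of these, like the 3 from the left chain and the 1 from the right island, had a counterpart in each replicate list. The peak at 16965558 is the one that borders the second longest desert.

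As a share of peaks, strong ones were fewer on the V arms than on the other outer segments. Of the V arm peaks, 28 (6.90%) were among the lowest-q 10% of the whole combined list, which is 9.99% of all peaks by construction, against 206 of 1797 (11.5%) in the outer segments of II, III and IV. The difference was -4.57 percentage points (95% interval -7.17 to -1.36, Fisher's exact test, adjusted p = 0.0114). The left arm had 15 such peaks (7.21%) and the right 13 (6.57%), and each share was below the 8.37% to 13.1% of the 6 outer segments (left against right, difference 0.646 points, interval -4.52 to 5.76, Fisher's exact test, adjusted p = 0.847). By Fisher's exact test, the call did not hold with the replicate 2 list (adjusted p = 0.416), the lowest-q 20% (0.133), or chromosome II (0.131) or I (0.060) alone as the comparison. In the centre of V, 29 of 408 peaks (7.11%) were in that 10%, so the low share was not particular to the arms. The median q was 0.000146 on the left arm and 0.000284 on the right. Both were inside the range of the 6 outer segments (1.77e-05 to 0.000317).

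Median widths differed between the arms, and where they stood among the other outer segments depended on the list. In the combined list the median was 278.5 bp on the left arm (quartiles 183 and 382) and 320.5 bp on the right (216 and 437), and 293 to 323.5 bp in the other outer segments. The left arm was therefore just below that range and the right arm inside it. In replicate 1 the medians were 307.5 bp on the left and 387 bp on the right, against 301 to 327.5 bp. In replicate 2 they were 301.5 and 334.5 bp, against 265 to 312 bp. In both replicate lists the left arm thus lay inside the range of the 6 and the right arm above it, and the left arm had the lower median in all 3 lists, differences that were not tested.

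Peaks narrower than the 36-bp reads numbered 18 on the left and 15 on the right, together 8.13% of the V arm peaks, against 5.23% in the other outer segments and 5.37% of all combined peaks. Of these 33 narrow peaks, 16 on the left and all 15 on the right were in neither replicate list. That share was not worked out for the 327 narrow peaks of the whole combined list. The counts are therefore not a result about the V arms. Peaks wider than 1000 bp numbered 15 (3.69%, against 3.41% of all combined peaks), 11 on the left and 4 on the right. On the left, 5 of them were found in both replicates, 5 in replicate 1 only and 1 in neither. On the right, 3 were found in both, among them the peak at 18723140 to 18724435 (1296 bp, q = 1.97e-11), and 1 in neither, at 19521043 to 19522339 (1297 bp, q = 0.000281). This split was not worked out for the 208 combined peaks wider than 1000 bp. It is therefore not a result about the V arms either.

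The 1 wide peak of the left arm in neither replicate list was a block of 36.7 kb, at 5985705 to 6022427. It was the widest peak of the whole combined list, 5.24 times as wide as the second widest (7002 bp), and no other combined peak exceeded 10 kb. Its q was 7.73e-29, the 6th lowest of the left arm and the 204th of all 6095. Neither replicate list held any peak within it. Replicate 1 had no peak for 104 kb around it, from 5939844 to 6043880, and replicate 2 none for 262 kb, from 5791190 to 6053307. The widest peak anywhere was 4278 bp in replicate 1 and 4344 bp in replicate 2.

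No other peak combined such a low q with the lack of a replicate counterpart. Of the 2180 combined peaks in neither replicate list, this block had the lowest q. The next lowest was 2.62e-08, at 6516872 to 6517480 (609 bp), also on the left arm. Of the 1776 peaks found in both replicates, 1573 had a higher q than the block. The block alone made up 34.0% of the bases covered by peaks on the left arm, which covered 1.55% of that arm with it and 1.02% without it, against 0.991% on the right arm. The gene carried by the transgene, fos-1, lies on chromosome V, per the RefSeq gene table of WBcel235. Where that gene lies with respect to the block was not analysed here, since that table belongs to another build.

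**Figure D3:**
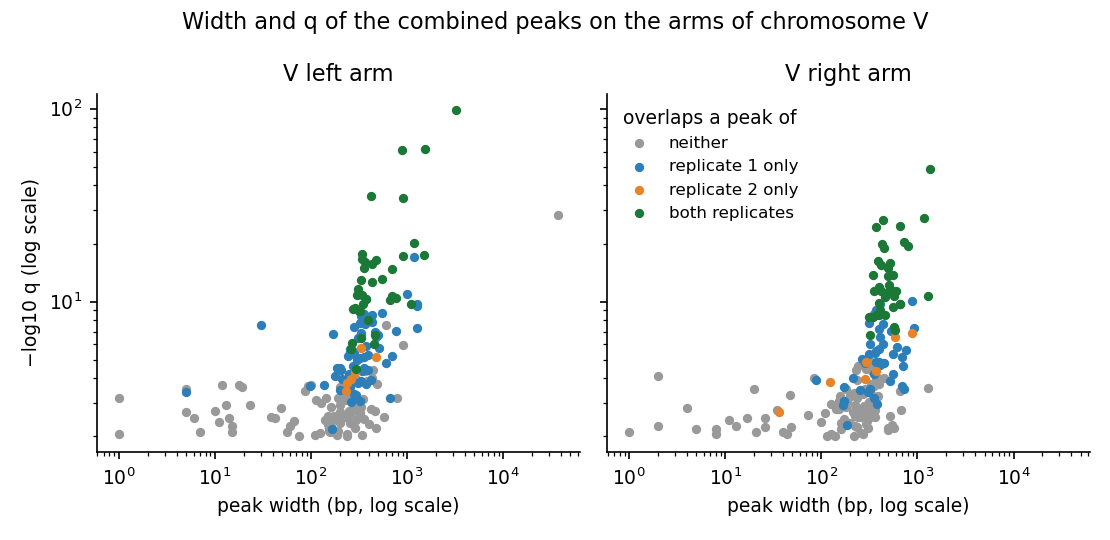
Width (x axis, bp) and −log10 q (y axis) of each combined peak on the left and right V arm, both on log scales, coloured by the replicate lists the peak overlaps. Peaks found in both replicates sit at high −log10 q, peaks in neither sit low, and the 36.7-kb block stands apart at the right edge of the left-arm panel as a peak in neither list.

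About as many V arm peaks lacked a replicate counterpart as had one. Of the 406, 207 (51.0%, exact 95% interval 46.0 to 55.9) overlapped no peak of either replicate by 1 bp or more, against 35.8% of all combined peaks. The share was 30.3% in the outer segments of II, III and IV, a difference of 20.7 percentage points (95% interval 15.3 to 25.9, Fisher's exact test, adjusted p = 5.61e-14). The test treats peaks as independent, although all came from the same ChIP libraries and the centre of V had a like share (below). Its p-value may therefore be too small and its interval too narrow, and neither sets the arms apart from the rest of V. The left arm had 48.1% and the right 54.0%, and the 6 outer segments ran from 26.1% to 36.9%. Both arms thus lay above all 6, and they were not told apart from each other (difference -5.96 points, interval -15.5 to 3.74, Fisher's exact test, adjusted p = 0.392).

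The high share was not particular to the arms of V. The centre of V had 50.0%, and the outer segments of I had 48.8% (V arms against I, chosen with the values of I in view, difference 2.14 points, Fisher's exact test, adjusted p = 0.753). The outer segments of I were at the same time dense in peaks, with 64.6 per Mb. The centre of V, with 58.5 per Mb, was about as dense as the outer segments of II, III and IV. High shares without a counterpart were therefore seen in dense segments as well as in the sparse arms. That I and V as whole chromosomes have high shares was known when the arms were chosen.

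Peaks found in both replicates were few. There were 38 on the left arm (18.3%) and 39 on the right (19.7%), together 19.0% of V arm peaks, against 29.1% of all combined peaks and 36.2% in the outer segments of II, III and IV (difference -17.3 points, 95% interval -21.4 to -12.6, Fisher's exact test, adjusted p = 1.9e-11). The arms did not differ beyond counting error (difference -1.43 points, interval -9.10 to 6.20, Fisher's exact test, adjusted p = 0.847). Against the outer segments of I, with 19.9%, no difference was called (-0.911 points, adjusted p = 0.847, Fisher's exact test). The centre of V had 75 of 408 (18.4%), so the low share was not particular to the arms. The tests on this share also treat peaks as independent, so their p-values may be too small and their intervals too narrow. Peaks in replicate 1 only made up 30.8% of the left arm and 22.7% of the right, against 32.7% of all combined peaks, and peaks in replicate 2 only 2.88% and 3.54%, against 2.40%.

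**Figure D4:**
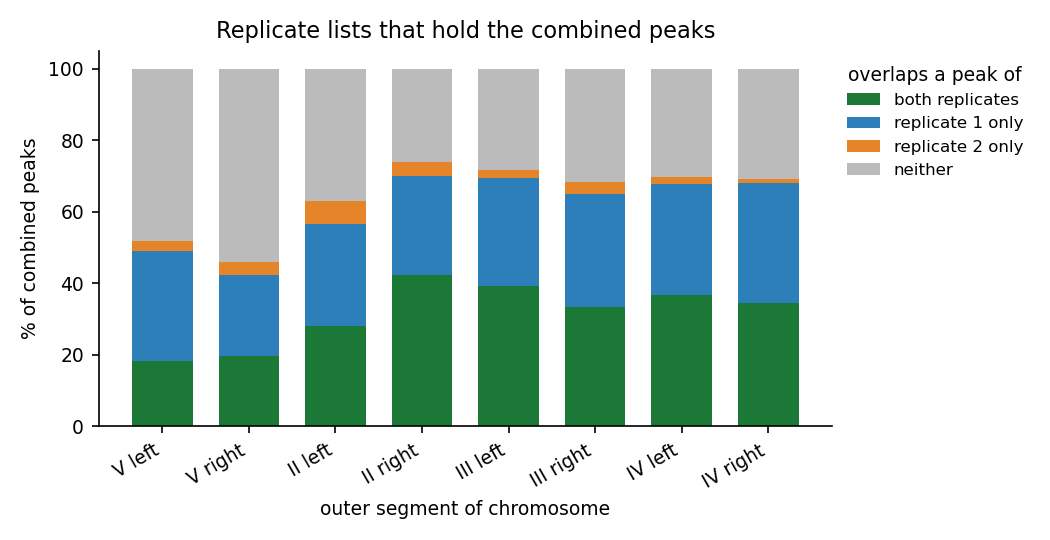
Share of combined peaks (y axis, percent) that overlap a peak of both replicate lists, of one of them or of neither, in each V arm and each outer segment of II, III and IV. The V arms have the largest grey share (neither), 48.1% and 54.0%, and the smallest green share (both), 18.3% and 19.7%.

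The excess without a counterpart over the outer segments of II, III and IV was also seen among peaks of like q. When the whole combined list was ranked by q and cut into 4 classes of equal size, 70.2% of left-arm peaks and 76.8% of right-arm peaks in class 3 (q from 0.000103 to 0.00201) lacked a counterpart, against 40.2% in the outer segments of II, III and IV. In class 2 the shares were 11.8%, 23.8% and 3.93%. In class 4, the highest q, they were 98.1%, 96.4% and 78.8%. The excess was thus widest in percentage points in class 3, and as a ratio it was larger in class 2 than in classes 3 and 4. Classes 1 and 2 together, the lowest-q 50%, gave 9.78% on the V arms against 1.86% (difference 7.92 points, Fisher's exact test, adjusted p = 5.39e-06), and classes 3 and 4 were not tested. In class 1, where 1524 peaks of the whole list lie, 2 lacked a counterpart, and both were on the left arm of V: the 36.7-kb block and the peak at 6516872.

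**Figure D5:**
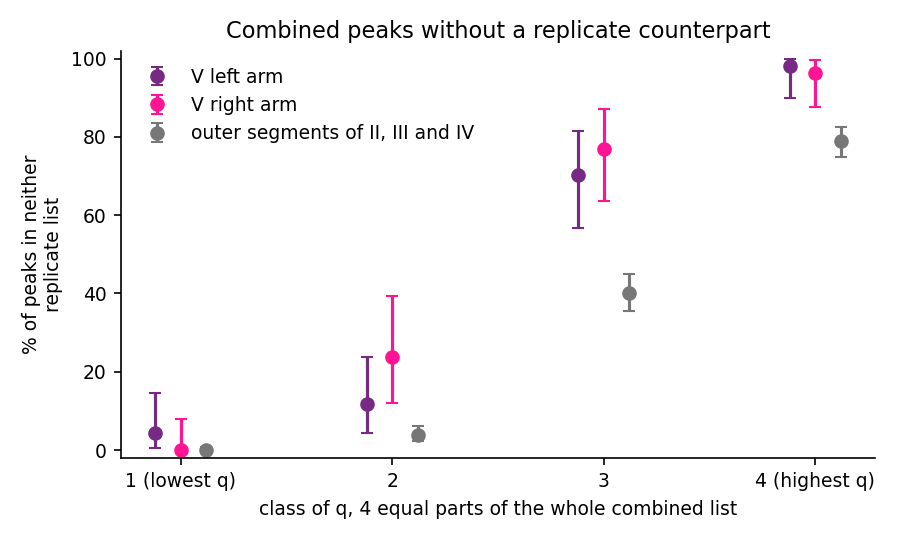
Share of combined peaks in neither replicate list (y axis, percent, with exact 95% intervals) by class of q, 4 classes of equal size over the whole combined list, for the V left arm, the V right arm and the outer segments of II, III and IV. In classes 2 to 4 both V arms lie above those outer segments. The gap in percentage points is widest in class 3 (70.2% and 76.8% against 40.2%). The outer segments of I and the centre of V, with 79.6% and 66.7% in class 3, are not drawn.

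Width and q differed between the overlap groups in the same way on both arms. Peaks found in both replicates had a median width of 405.5 bp and a median q of 7.63e-12 on the left, and 489 bp and 3.85e-12 on the right. Peaks in neither had 200 bp and 0.00211 on the left, and 240 bp and 0.00203 on the right. Since the merged reads behind the combined list are those of the same 2 ChIP libraries, these groups are not independent of its q.

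Within the arms, the share without a counterpart varied from bin to bin. On the left arm it ran from 35.1% (13 of 37 peaks from 6 Mb to the boundary) to 72.4% (21 of 29 from 4 to 5 Mb). On the right arm, among the 1-Mb bins, it ran from 25% (2 of 8 from 17 to 18 Mb) to 76% (19 of 25 from 19 to 20 Mb). Over all combined peaks the share was 35.8%. The lowest share came from the 1-Mb bin poorest in peaks, whose 8 peaks are too few to link the share to density. Differences between bins were not tested.

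In the other direction, nearly all replicate peaks on the V arms were in the combined list. All 92 replicate 2 peaks overlapped a combined peak (exact 95% interval 96.1 to 100), against 98.8% of that whole list. Of 197 replicate 1 peaks, 186 did (94.4%, against 94.8%), and the 4 left-arm and 7 right-arm peaks that did not had q of 0.00100 to 0.00736. Between the replicates, 79 of those 92 (85.9%, interval 77.0 to 92.3) were also met by replicate 1, against 91.1% of the whole replicate 2 list. A replicate 2 peak was overlapped by 77 of the replicate 1 peaks (39.1%), against 44.3% of the whole replicate 1 list and 51.0% in the outer segments of II, III and IV. The replicate lists were short on the V arms, though not there alone. Per combined peak, replicate 1 held 0.510 on the left arm and 0.460 on the right, against 0.715 in those outer segments and 0.662 over all chromosomes. The same ratio was 0.515 in the centre of V and 0.519 in the outer segments of I.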

How the data were processed

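The 3 deposited peak lists name PeakSeq as caller, per the file headers and columns; its version and the aligner are not named in the files used. Per the deposited sample table, the authors called the combined list on merged ChIP against merged input, and each replicate list on 1 ChIP library. Which input a replicate list was set against is not said there, and this bears on every comparison of combined with replicate peaks. Reads of 36 bp were aligned to WS180 and peaks lifted over to WS220, which changed the structure of 0 peaks on V. Each peak has a q value, a p-value adjusted by the authors, of at most 0.01, used here to rank and describe peaks. The authors' deposited read counts per library are whole numbers, with 0 for multiply mapped reads. No read-level signal was used.

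The arms of V follow the bounds given. Other chromosomes were cut by the end of their last peak in any list, which stood in for their length. Overlap meant at least 1 bp. Densities were compared by two-sided exact binomial tests given the length, and shares by two-sided Fisher's exact tests, with Benjamini-Hochberg adjustment over 10 tests and a threshold of 0.05. Intervals are exact (Clopper-Pearson) for shares and density ratios and Newcombe's for differences of shares, and cover counting error only. The Fisher's exact tests, like those of density, treat peaks or gaps as independent, so their p-values may be too small. Regions named by rule are, per arm, the 5 peaks with the lowest q, the 3 widest, the 5 longest gaps and the 3 fullest 100-kb windows, ties kept. The chain of 6 peaks (gaps of at most 10 kb), the peaks at desert and arm bounds, the replicate 1 peaks inside deserts and the peak at 6516872 were chosen after their values were seen.

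Members, measures and tests were chosen with earlier results of these data known. Alternatives changed the list, overlap rule, arm bounds, chromosomes compared, window size, and limits on q, width and gaps. The code was tested on simulated data. Genes, motifs and sequences were not analysed here, since no genome or annotation of the build was used. Software was Python 3.11.15 with scipy 1.17.1, numpy 2.4.6, pandas 2.3.3 and matplotlib 3.10.9.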

Additional observations from a re-analysis of the deposited data

How the results depend on the processing

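Leaving out the fullest window of the right arm, and comparing with I or II alone, were added with the results in view. Of 92 alternative values with a test, 74 kept direction and side of the threshold, among them all 11 for the density of V against the other outer segments (ratio 0.279 to 0.551) and all 6 for the left-right difference in the share in both lists. Against I alone, the differences for neither and both lists were 2.14 and -0.911 points and no longer called. The lowest-q 10% comparison lost its call with the lowest-q 20% (-4.18 points), I alone (-4.04) and II alone (-3.66), and ran from -6.22 to -4.24 in the single replicate lists. The comparison of short gaps lost its call with the lowest-q 50% (-5.62), smaller arms (-5.06), 1000 bp (-3.58) and II alone (-4.67), and ran from -8.71 to -5.12 in the single replicate lists. In both, the replicate 2 list, with 92 V arm peaks, was the one without a call, and the cause was not tested.

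Left-right differences, none of them called, changed sign in 7 alternatives. In the single replicate lists the density ratio was 0.997 to 1.16, the lowest-q 10% difference -0.778 to 6.52 and the short-gap difference -4.92 to 4.44 points, and with overlap by 1 replicate the neither difference was -6.61 to 2.08. The lowest-q 10% difference was also -1.96 with smaller arms and -0.850 with the lowest-q 20%, and the short-gap difference 1.30 without the fullest right window.

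Median width on the left was 301.5 to 307.5 bp in the replicate lists, 360.5 bp with the lowest-q 50%, 294 bp without peaks narrower than a read and 283 bp with smaller arms. On the right it was 334.5 to 387 bp in the replicate lists and 412.5 bp with the lowest-q 50%. Empty windows on the left were 36.2% to 60.9% in the replicate lists, 34.8% with the lowest-q 50%, 33.8% at 50 kb and 0% at 200 kb. On the right they were 47.8% to 58.0%, 47.8%, 40.3% and 8.82%. Fewer peaks or smaller windows leave more windows empty by construction. An empty window means no call at this depth, with 0 multiply mapped reads in the deposited counts. How much of each arm 36-bp reads could reach uniquely was not analysed.

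No paired analysis was possible because the libraries enter the lists only by way of the calling done by the authors, and no test here set libraries against each other.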
